A study of Mus musculus with 18 samples.

Results

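Transcripts of cytosolic ribosomal proteins were compared in lumbar motor neurons of SOD1 G93A mice and of their non-transgenic littermates, called controls. The members are genes whose symbol begins with Rpl or Rps and a digit, or is Rplp0, Rplp1, Rplp2 or Rpsa. S6 kinases, pseudogenes marked by -ps in the symbol and symbols ending in l1 were left out, and only probe sets annotated to a single gene symbol were taken. This gave 46 genes on 97 probe sets, out of 12393 genes on an array of 22690 probe sets. By symbol, 24 of the genes fall to the large 60S subunit and 22 to the small 40S subunit. Each gene is represented by its probe set of highest mean log2 signal. The array holds 102 more ribosomal probe sets that the annotation also assigns to a pseudogene or another gene. These are no members, and 30 ribosomal protein genes, among them Rpl5 and Rplp1, are measured by such probe sets alone.

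The G93A transgene encodes a human superoxide dismutase with a mutation that causes familial amyotrophic lateral sclerosis, and the study asked which motor neuron transcripts change as the injury progresses. Both genotypes were sampled at 60, 90 and 120 days of age. Each of the 6 groups holds 3 mice with 1 one-colour array each, 18 arrays in all, and the sources used here do not give strain, sex, transgene copy number or the promoter that drives the transgene. From every mouse 1000 motor neurons were cut by laser out of frozen 10 µm sections, so each value is a bulk signal in which fewer cells of a type and less RNA per cell cannot be told apart.

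A ribosome joins a 40S subunit, which reads the messenger RNA, to a 60S subunit, which forms the peptide bond and holds the exit tunnel of the new protein. The proteins of both subunits are made in roughly matched amounts, and their messenger RNAs share a pyrimidine tract at the 5′ end (the TOP motif) that couples their translation to mTOR signalling. Motor neurons keep dense stacks of ribosomes in the cell body, the Nissl substance, which is the structure that toluidine blue stains.

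Of the cholinergic motor neuron genes, the choline transporter Slc5a7 exceeded the array median on 2 of 18 arrays and the vesicular acetylcholine transporter Slc18a3 on 0. The neurofilament genes Nefl, Nefm and Nefh exceeded it on all 18. Of the motor neuron transcription factors Isl2 exceeded it on 18, Isl1 on 9 and Mnx1 on 8. Markers of other cells also exceeded the array median on all 18 arrays, such as Mbp and Cnp (oligodendrocyte), Csf1r and C1qb (microglia) and Gja1 and Aqp4 (astrocyte). Other markers of these cells did so on fewer arrays, such as Mog on 9, Aldh1l1 on 8 and Aif1 on 1. Median correlation of an array with the others lay between 0.611 and 0.75 over the tested probe sets, and control replicates 2 and 3 of 60 days were the least correlated. Signals from single probe sets were not set against each other, since a probe set's brightness depends on its sequence.

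Of the 46 genes, 43 were bright enough to be tested: 22 of the 60S and 21 of the 40S subunit. The remaining 3 are Rps4l and paralogs with restricted expression. The testis-enriched Rpl39l had signals from 1.6 to 122.3, the muscle form Rpl3l from 5.1 to 43.2, and Rps4l, which RefSeq lists as a transcribed pseudogene, from 1.8 to 37.1. The p53-responsive paralog Rps27l was tested and had signals from 232 to 610.2, above the array median on all 18 arrays. Mean log2 signals of the 43 ran from 5.80 for Rpl39 to 13.17 for Rps29. The standard deviation among the 3 mice of a group, pooled over groups, had a median of 0.52 on the log2 scale, beside 0.851 over all 16565 tested probe sets. It was lowest for Rpl10a and Rps20 (0.258 each) and highest for Rpl4 (1.29), Rps3a1 (1.15) and Rpl22 (1.00).

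**Figure D1:**
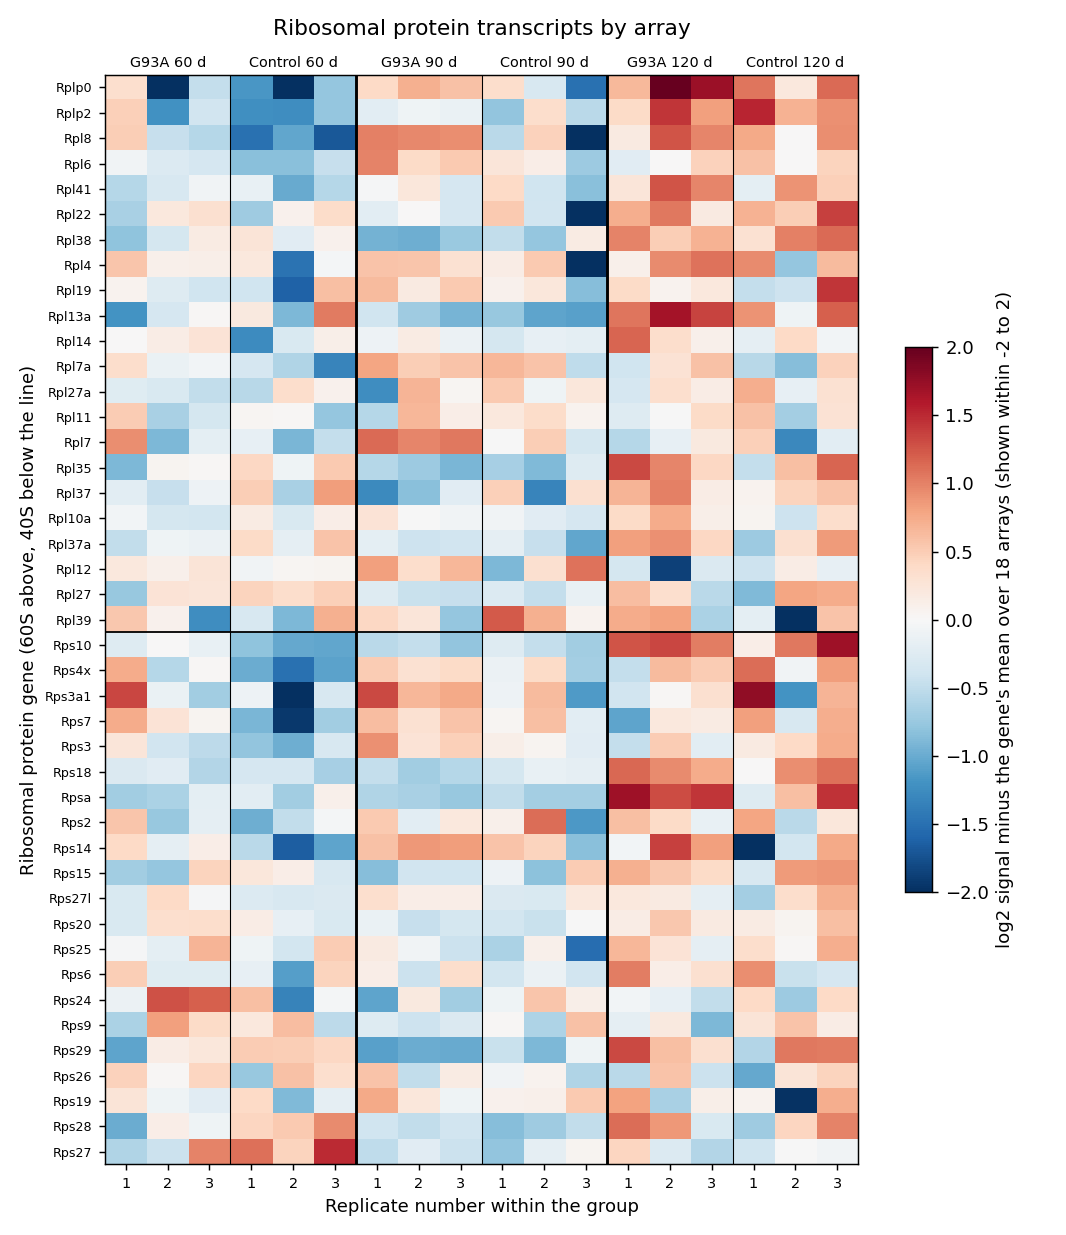
Signals of the 43 tested ribosomal protein genes (rows, 60S above 40S) on the 18 arrays (columns, by age with G93A left of control), as log2 signal minus the gene's mean over the arrays; colours are cut at -2 and 2. Red is most frequent on the arrays of 120 days, and control replicate 2 of 60 days has 32 of 43 genes below their own mean.

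Averaged over the 43 genes, with each gene set relative to its own mean over the arrays, ribosomal protein signals stood highest at 120 days in both genotypes. On the log2 scale, the 60-day values were -0.05, -0.20 and -0.04 in G93A mice and -0.22, -0.65 and -0.09 in controls. The 90-day values were 0.04, -0.01 and -0.06 in G93A mice and -0.11, -0.09 and -0.55 in controls. The 120-day values were 0.38, 0.55 and 0.29 in G93A mice and 0.13, 0.01 and 0.67 in controls. In each genotype the 3 arrays of 120 days were above the 3 of 60 days, without overlap. Between genotypes the arrays overlapped at 60 and at 120 days, while at 90 days all 3 G93A arrays lay above the controls. The same mean taken over all tested probe sets lay between -0.23 and 0.14 on every array and was lowest on control replicate 1 of 120 days. Control replicate 2 of 60 days and control replicate 3 of 120 days stood furthest from 0. Over 60, 90 and 120 days the SD among 3 mice was 0.09, 0.05 and 0.13 in G93A mice and 0.29, 0.26 and 0.36 in controls. Since the average is a score over chosen members, it carries no test.

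**Figure D2:**
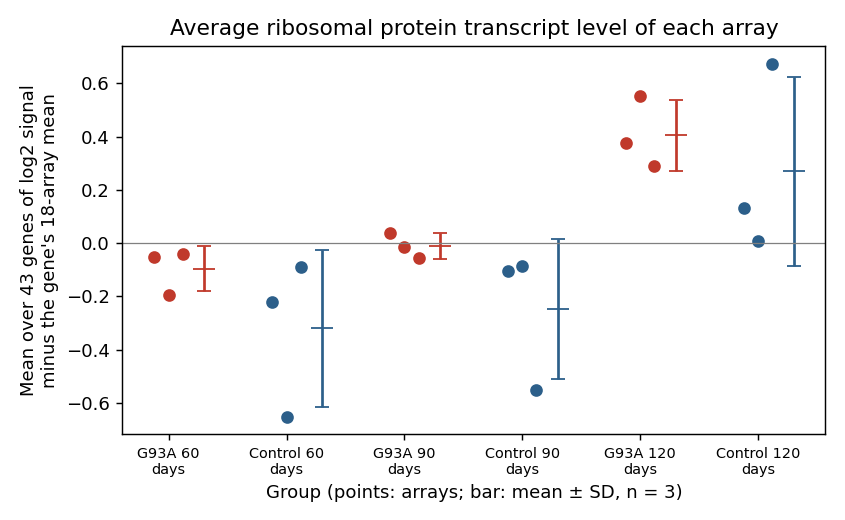
Mean over 43 ribosomal protein genes of log2 signal minus the gene's 18-array mean (vertical axis) for each array (points), with the group mean and SD (bars, n = 3). G93A mice averaged 0.41 and controls 0.27 at 120 days, above the -0.10 of G93A mice and the -0.32 of controls at 60 days.

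The clearest differences were between ages. In G93A mice 5 of the 43 genes rose between 60 and 120 days and 0 fell: Rpsa, Rps18, Rps10, Rpl13a and Rplp0. A gene counted as changed at a limma adjusted p below 0.05, with adjustment over all 16565 probe sets, of which 2% were called in this comparison (1% higher, 0.996% lower). At an unadjusted p below 0.05, 14 members were higher and 1 was lower, or 32.6% and 2.33% beside 6.65% and 9.65% of all tested probe sets. The members had a median log2 difference of 0.42 and 35 of 43 lay above 0, beside a median of -0.11 and 45.2% above 0 over all tested probe sets. By subunit, 2 of 22 genes of the 60S and 3 of 21 of the 40S rose.

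Rpsa, a protein on the back of the 40S subunit that is also known as the laminin receptor, had signals of 13609.7, 10412 and 11294 at 120 days and of 2581, 2698 and 3648 at 60 days in G93A mice. The 2 ages were far apart, and the log2 difference was 1.99 ± 0.36 (SE, limma adjusted p = 0.00777). In controls Rpsa had 3502, 6349 and 11427.5 at 120 days and 3632, 2606 and 4520.4 at 60 days, so that the ages overlapped (0.86 ± 0.36, limma adjusted p = 0.138). At 90 days its signals were 2761, 2671 and 2472 in G93A mice and 2979.6, 2610.2 and 2627 in controls, none above the highest of 60 days in the same genotype.

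Rps18, a protein of the 40S head, rose in both genotypes. It had 6068.5, 5289 and 4581 at 120 days and 2244, 2336 and 1826 at 60 days in G93A mice (1.31 ± 0.30, limma adjusted p = 0.025). In controls it had 2763, 5259 and 5876 at 120 days and 2166, 2174 and 1728 at 60 days (1.13 ± 0.30, limma adjusted p = 0.0242). Both differences were larger than the spread between mice, although control replicate 1 of 120 days stood well below the other 2. A second Rps18 probe set also rose in both genotypes, by 1.57 in G93A mice and 1.70 in controls, and the last had 1.17 and 0.48 without a call.

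Rps10 sits near the entry of the messenger RNA channel and is mutated in some families with Diamond-Blackfan anaemia, a failure of red cell formation caused by ribosomal protein loss. It had 1642, 1734 and 1394 at 120 days and 576.1, 688.5 and 623.3 at 60 days in G93A mice (1.34 ± 0.31, limma adjusted p = 0.0269). In controls it had 756.5, 1429 and 2232 at 120 days and 393.8, 339.4 and 333.9 at 60 days (1.92 ± 0.31, limma adjusted p = 0.000632). Of its 5 tested probe sets, 1 passed in G93A mice, with differences from 0.45 to 1.65, and 3 passed in controls, with differences from 0.78 to 3.98.

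Rplp0 forms the base of the P stalk, the arm of the 60S subunit that recruits elongation factors, and Rplp2 is one of the acidic proteins that hang from it. Rplp0 had 268.5, 827.3 and 563.3 at 120 days and 217, 41.9 and 123.6 at 60 days in G93A mice (2.27 ± 0.60, limma adjusted p = 0.0482). In controls it had 358.9, 197.5 and 374.7 at 120 days and 76.6, 18.6 and 100.3 at 60 days (2.51 ± 0.60, limma adjusted p = 0.0143). No 60-day signal reached those of 120 days in either genotype, but replicate 2 of 60 days was low in both. Without G93A replicate 2 of 60 days the G93A difference was 1.61 (limma adjusted p = 0.234), and without control replicate 2 of 60 days the control difference was 1.77 (limma adjusted p = 0.0844), so neither passed. Rplp2 had 374.8, 770.8 and 503.7 at 120 days and 398, 123.5 and 220 at 60 days in G93A mice, which overlapped (1.25 ± 0.39, limma adjusted p = 0.0968). In controls it had 825, 461 and 538.3 at 120 days and 121.8, 120.3 and 168 at 60 days and rose by 2.13 ± 0.39 (limma adjusted p = 0.00209).

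Rpl13a, a 60S protein that can leave the ribosome to silence inflammatory messenger RNAs, had 11373, 17234 and 13874 at 120 days and 2379, 4296 and 5514 at 60 days in G93A mice (1.86 ± 0.43, limma adjusted p = 0.0274). In controls the ages overlapped, with 10150.1, 5103 and 12418 at 120 days and 6177, 2908 and 11123.5 at 60 days (0.56 ± 0.43, limma adjusted p = 0.441). Its probe sets disagreed. The other 3 tested ones differed by -0.10, 0.19 and 0.65 in G93A mice without a call, and one of them rose in controls (1.14, limma adjusted p = 0.0159). The representative probe set carries the suffix that marks possible cross-hybridization, so the rise in G93A mice rests on that probe set alone. In all, 16 of the 46 representatives carry it, among them those of Rps18, Rps14, Rpl38, Rps29, Rpl35, Rpl7, Rps24 and Rps9.

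In controls 9 of the 43 genes rose between 60 and 120 days and 0 fell, where 6.71% of all tested probe sets were called (3.87% higher, 2.84% lower). The median was 0.43 with 35 of 43 above 0, beside -0.26 and 40.6% over all tested probe sets. At an unadjusted p below 0.05, 13 members were higher and 1 was lower, or 30.2% and 2.33% beside 10.4% and 14.2%. Besides Rps10, Rplp2, Rplp0 and Rps18, the called genes were Rps4x, Rpl8, Rps7, Rps3 and Rpl6. The rule for naming takes 5 genes in this comparison, and Rps18, Rps7, Rps3 and Rpl6 were added after their values were seen. The 9 called genes make up 4 of the 22 genes of the 60S and 5 of the 21 of the 40S. After quantile normalization the control median was 0.29, beside 0.003 over all tested probe sets. In G93A mice these values were 0.30 and -0.12. The tested members had a median mean log2 signal of 9.05, beside 5.97. The median signal of an array averaged 43.73 at 120 days and 61.53 at 60 days in controls, against 54.27 and 52.83 in G93A mice. The part of signal level in these medians was not tested.

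Rps4x, the X-linked 40S protein whose human counterpart escapes X inactivation, had 409.6, 882.9 and 815.7 at 120 days and 960.8, 385.8 and 580.2 at 60 days in G93A mice, where the ages overlapped (0.15 ± 0.37, limma adjusted p = 0.885). In controls it had 1245, 544 and 1019 at 120 days and 288.6, 203.3 and 273.4 at 60 days (1.81 ± 0.37, limma adjusted p = 0.00551). Rpl8, which lies close to the peptidyl transferase centre, had 300.2, 635.7 and 524.9 at 120 days and 374.5, 192.3 and 178.2 at 60 days in G93A mice (0.99 ± 0.47, limma adjusted p = 0.297). Its control signals were 451.1, 266.4 and 504.2 at 120 days and 94.7, 129.7 and 82.2 at 60 days (1.97 ± 0.47, limma adjusted p = 0.0141). The 3 control signals of 60 days were the lowest of all 18 for Rps4x, and for Rpl8 only control replicate 3 of 90 days was lower.

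Rps7, a 40S protein that also binds the p53 regulator Mdm2, had 704.1, 1696 and 1641 at 120 days and 2456, 1765 and 1522 at 60 days in G93A mice, which overlapped (-0.58 ± 0.38, limma adjusted p = 0.473). In controls it had 2598, 1181 and 2434 at 120 days and 778.2, 385.1 and 909.8 at 60 days, without overlap (1.59 ± 0.38, limma adjusted p = 0.0143). Its second probe set differed by -0.18 in G93A mice and 0.20 in controls. Rps3, which lines the entry of the messenger RNA channel, differed by 0.17 ± 0.31 in G93A mice without a call and rose by 1.14 ± 0.31 in controls (limma adjusted p = 0.0276). The 60S protein Rpl6 differed by 0.30 ± 0.30 in G93A mice without a call and rose by 1.06 ± 0.30 in controls (limma adjusted p = 0.0342).

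**Figure D3:**
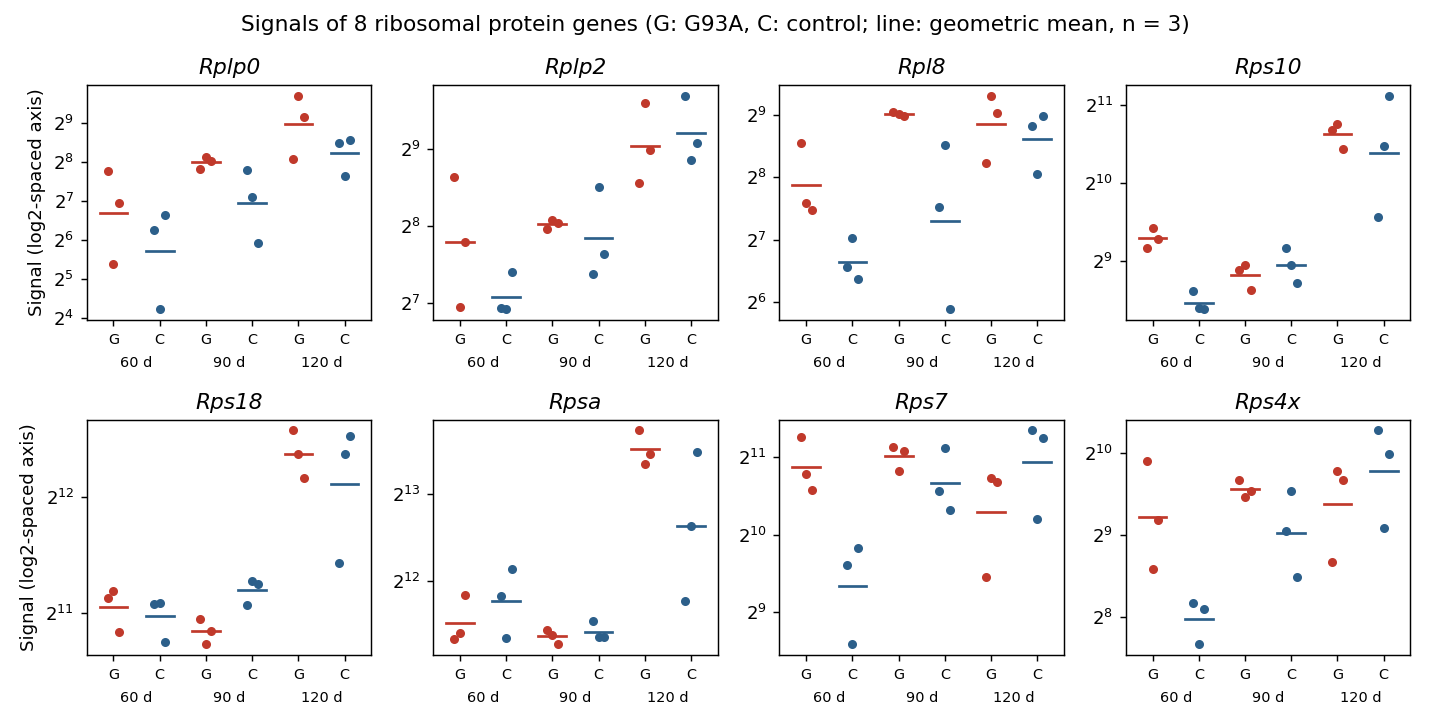
Signals of 8 ribosomal protein genes on every array (points, log2-spaced vertical axis) by age and genotype (G, G93A, red; C, control, blue), with the geometric mean of each group (line, n = 3). Rps10 and Rps18 stand higher at 120 than at 60 days in both genotypes, while the control means of Rps7, Rps4x and Rpl8 are lowest at 60 days.

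Of the 11 genes called in either genotype, Rplp0, Rps10 and Rps18 passed in both, 2 passed in G93A mice and 6 in controls. A call in 1 genotype does not show that the genotypes differ: the test of whether the genotype difference changed with age called 0 of the 43, beside 0.417% of all tested probe sets. At an unadjusted p below 0.05 there were 4 (9.3% beside 13.1%). Rps7 had the smallest p in that test (limma adjusted p = 0.112), followed by Rps4x (0.254) and Rps24 (0.336). In all, 30 of the 43 genes (69.8%) were above 0 in both age comparisons, beside 20.2% of all tested probe sets. The genes furthest below 0 were Rpl12 (-1.03 ± 0.53) and Rps24 (-1.02 ± 0.46) in G93A mice and Rps27 (-1.18 ± 0.44) in controls, none of them called.

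With each array left out in turn, the calls of Rpsa in G93A mice and of Rps10, Rplp2 and Rps4x in controls held in all 18 fits. In G93A mice Rps18 and Rps10 each lost the call without any one of the 6 arrays compared other than replicate 3 of 120 days, with limma adjusted p up to 0.0801 and 0.0917 and differences of at least 1.21 and 1.27. Rpl13a lost it without G93A replicate 1 or 2 of 60 days or replicate 2 or 3 of 120 days (limma adjusted p up to 0.129). Rplp0 kept it in G93A mice in 7 of 18 fits, those without G93A replicate 1 of either age or without control replicate 1 or 3 of 120 days, 2 or 3 of 60 days or 3 of 90 days. In controls it kept the call in 16 of 18, and besides replicate 2 of 60 days the omission of control replicate 1 of 120 days ended it (limma adjusted p = 0.0518). Rpl8 lost it in controls without replicate 3 of 60 days (1.83, limma adjusted p = 0.0578). Of the other control calls, Rps7 lost it without replicate 2 of 60 days (1.22) or replicate 1 of 120 days (1.39), and Rps18 without replicate 3 of 60 days (1.02) or replicate 2 or 3 of 120 days (1.00 and 0.92). Rps3 lost it without replicate 1 or 2 of 60 days (1.09 and 1.00) or replicate 2 or 3 of 120 days (1.16 and 0.98), and Rpl6 without any of the 6 arrays other than replicate 2 of 120 days (0.93 to 1.18).

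**Figure D4:**
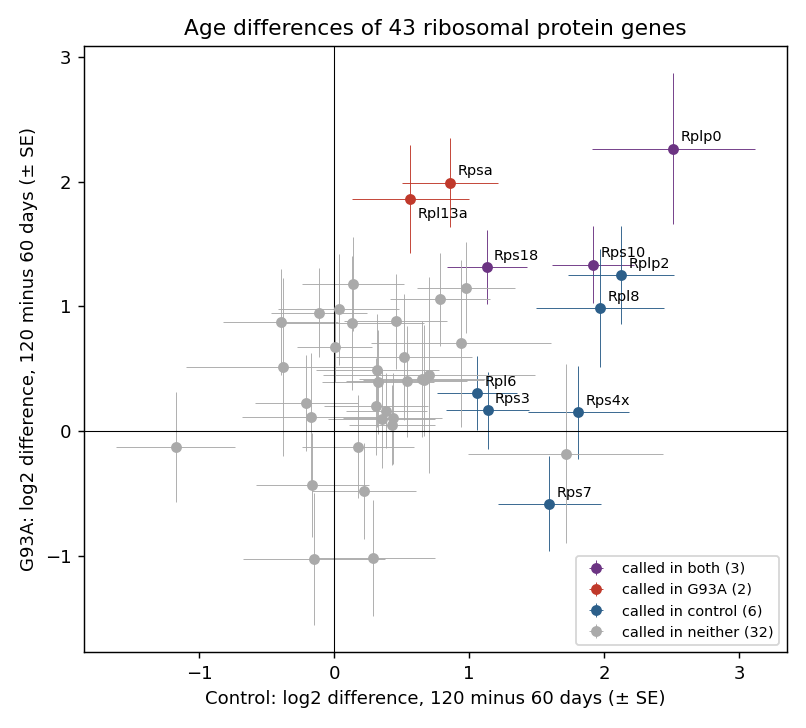
Log2 difference between 120 and 60 days in G93A mice (vertical axis) and in controls (horizontal axis) for each of the 43 tested ribosomal protein genes, with standard errors. Colours mark genes called in both genotypes (3), in G93A mice (2), in controls (6) or in neither (32); the called genes lie above 0 in both directions except Rps7.

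Of the 11 genes called, start-site windows of 7 are shown, those that the rule names in the age comparisons other than Rpl8, because many ribosomal protein genes share a TOP-like pyrimidine run at the start and a site for ETS-family factors such as GABP. Windows run from 60 bases before the annotated start to 15 bases from it, on the strand of the gene, and were taken from RefSeq on GRCm38.p6. Capitals mark CTTTC or CTTTT on the sense strand and CGGAAG on either strand (CTTCCG on the sense strand).
Rps10: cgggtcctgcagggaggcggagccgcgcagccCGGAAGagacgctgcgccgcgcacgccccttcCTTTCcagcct
Rplp2: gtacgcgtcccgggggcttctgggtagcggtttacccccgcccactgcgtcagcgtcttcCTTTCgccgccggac
Rpsa: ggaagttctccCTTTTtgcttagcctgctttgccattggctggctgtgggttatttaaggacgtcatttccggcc
Rps18: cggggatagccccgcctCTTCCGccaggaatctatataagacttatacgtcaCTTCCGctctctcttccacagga
Rpl13a: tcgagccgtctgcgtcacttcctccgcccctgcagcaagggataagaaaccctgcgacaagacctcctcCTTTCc
Rplp0: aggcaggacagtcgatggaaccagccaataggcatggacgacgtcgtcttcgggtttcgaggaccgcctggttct
Rps4x: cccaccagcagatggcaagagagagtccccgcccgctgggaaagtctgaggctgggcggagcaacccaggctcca

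The windows lie at chr17:27635230-27635304 (minus strand) for Rps10, chr7:141447591-141447665 (plus) for Rplp2, chr9:120127706-120127780 (plus) for Rpsa and chr17:33955651-33955725 (minus) for Rps18. That of Rpl13a is chr7:45128731-45128805 (minus), that of Rplp0 chr5:115559407-115559481 (plus) and that of Rps4x chrX:102189377-102189451 (minus). Rps10 holds both kinds of letters, Rplp2 and Rpl13a the pyrimidine letters close to the start, Rpsa the pyrimidine letters well before it and outside the transcript, Rps18 the ETS letters at 2 places, and neither is present in these windows of Rplp0 and Rps4x. The Rps18 window also has a run of pyrimidines at its annotated start, which the letters searched for do not match. The table held 48 promoters of 40 members. CTTTC or CTTTT lay within 50 bases of the start in 27 of the 48 (56.2%), beside 21.8% of all 32851 promoters, and CGGAAG on either strand within the 300 bases of the table in 30 of 48 (62.5%), beside 16.9%. Among the 11 genes that rose with age, 10 had a promoter, of which 6 held CTTTC or CTTTT and 7 held CGGAAG. Of the other 32 tested genes, 28 had one, of which 18 and 21 held them. A match is a description of letters and not of a site in use.

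The test for any difference among the 6 groups called 13 of the 43 genes (30.2%), beside 8.95% of all tested probe sets. Of these, Rpl35, Rpl38 and Rps29 were called in no age comparison and are named after their values were seen. Rpl38, a 60S protein known in mice for its part in the translation of Hox messenger RNAs, had 60-day signals of 4453, 6152 and 8797 in G93A mice and 9311, 6672 and 8263 in controls. Its 90-day signals were 4068, 3979 and 4660.1 in G93A mice and 5569, 4574 and 8769 in controls, and its 120-day signals 15571, 10979 and 12653 in G93A mice and 9615, 15747 and 17210.1 in controls. In both genotypes the 120-day signals lay above all of the 90-day signals. Rps29, a small zinc-binding 40S protein, had mean log2 signals of 12.94, 12.14 and 13.92 at 60, 90 and 120 days in G93A mice and 13.64, 12.69 and 13.67 in controls. Rpl35, a 60S protein beside the exit tunnel, had 11.34, 10.88 and 12.52 in G93A mice and 11.90, 11.01 and 12.04 in controls. Another Rpl35 probe set rose between 60 and 120 days in G93A mice (1.39 ± 0.37, limma adjusted p = 0.0482), as did another probe set of the small basic 60S protein Rpl41 (2.13, limma adjusted p = 0.0165). They are given because they were called. A further Rpl35 probe set had mean log2 signals of 5.76 at 60 and 4.78 at 120 days in G93A mice. A further Rpl41 probe set had 7.26 and 7.03. All other tested probe sets of these genes had higher means at 120 days.

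The members with special roles varied as follows. Rpl11, which joins Rpl5 and the 5S RNA and binds Mdm2 when free, differed by 0.20 ± 0.39 between ages in G93A mice and 0.31 ± 0.39 in controls. Rps6, the substrate of the S6 kinases below mTOR, had 260.8, 140.6 and 161.4 at 120 days and 181.7, 109.2 and 108.5 at 60 days in G93A mice. Its control signals were 245.3, 94.3 and 102.1 at 120 days and 114.5, 60.4 and 175.8 at 60 days, which overlapped as well. The sign of these small differences depended on single arrays: Rpl11 had -0.04 in G93A mice without replicate 2 of 60 days, and Rps6 had -0.12 in controls without replicate 1 of 120 days and -0.09 without replicate 2 of 60 days. Rps19, the gene most often mutated in Diamond-Blackfan anaemia, differed by 0.11 ± 0.52 in G93A mice and -0.17 ± 0.52 in controls. Without G93A replicate 1 of 120 days the G93A value was -0.24. The control value was 0.62 when control replicate 2 of 120 days was left out, and 0.14 when control replicate 1 of 60 days was. Of 11 tested genes linked to that anaemia 1 rose in G93A mice (9.09%) and 2 rose in controls (18.2%), where 2% and 6.71% of all tested probe sets were called. Of 5 listed around the peptide exit 0 were called in either.

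Other quantities also differed between 60 and 120 days, not all in the same direction. Their part in the rise of the ribosomal protein genes was not tested beyond the values given here. The Gapdh 3′/5′ ratio, which grows as transcripts are shortened at the 5′ end, averaged, in log2 units, 4.94 ± 0.54 at 120 days and 4.14 ± 0.43 at 60 days in G93A mice, and 4.48 ± 0.26 at 120 days and 3.36 ± 0.33 at 60 days in controls (SD, n = 3 each). The mean Actb ratio was higher at 120 days in G93A mice and lower in controls. It was 6.2 ± 1.01 at 120 days and 5.15 ± 0.32 at 60 days in G93A mice, against 5.95 ± 2.13 at 120 days and 6.28 ± 1.43 at 60 days in controls. With the Gapdh ratio in the model 2 genes were called in G93A mice, Rpsa and Rps18, and 1 in controls, Rps10, and the medians were 0.23 and 0.36. The hybridization controls averaged 11.62 at 120 days and 9.47 at 60 days in G93A mice, against 11.64 at 120 days and 11.15 at 60 days in controls, on the log2 scale. With them in the model 1 gene was called in G93A mice and 10 were called in controls, while the medians were 0.47 and 0.46. The 18S ribosomal RNA probe sets moved the other way, with 8.63 at 120 days and 9.79 at 60 days in G93A mice, against 8.09 at 120 days and 10.67 at 60 days in controls. Without control replicates 2 and 3 of 60 days, the least correlated arrays, 0 genes were called in controls, while the median was 0.41. This alternative was chosen after seeing the data and rests on 1 control array of 60 days, assumed to vary like the other groups.

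Markers of other cells also differed with age. A sum follows its brightest probe sets, such as Mbp, Csf1r and Nefl, so median log2 differences of tested markers are given first. In G93A mice they were 1.01 (oligodendrocyte), 1.55 (microglia), -0.29 (astrocyte), -0.54 (motor neuron), -0.02 (endothelial) and -0.47 (interneuron). In controls they were 1.13, 0.18, 0.28, 0.05, 0.54 and 0.20 in the same order. The 7 measured oligodendrocyte markers summed to signals of 25980 to 39620 at 120 days and 12520 to 20590 at 60 days in G93A mice, against 22980 to 39900 at 120 days and 11430 to 13810 at 60 days in controls. Of these, 0 were called in G93A mice (beside 2% of all tested probe sets) and 2 of 7 rose in controls (28.6% beside 6.71%), Mobp and Cnp. The 12 microglia and macrophage markers summed to 12160 to 21270 at 120 days and 2612 to 3589 at 60 days in G93A mice, with 3 of 10 tested called, all higher (30%). In controls they summed to 4314 to 7263 at 120 days and 2378 to 4817 at 60 days, with 2 higher and 2 lower (40%). The 9 astrocyte markers summed to 3054 to 4946 at 120 days and 2933 to 5271 at 60 days in G93A mice, where 1 of 9 rose (11.1%), Gfap, against 2515 to 3683 at 120 days and 1954 to 3358 at 60 days in controls, where 0 were called. The 10 measured motor neuron markers summed to 8807 to 16490 at 120 days and 7672 to 19280 at 60 days in G93A mice, against 14570 to 28880 at 120 days and 18960 to 28370 at 60 days in controls, with 0 of 8 tested called in either. Endothelial markers summed to 554.8 to 685.1 at 120 days and 500.6 to 837.1 at 60 days in G93A mice, against 595.7 to 782 at 120 days and 354.2 to 477.9 at 60 days in controls, with 0 called. Interneuron markers summed to 745.7 to 972.2 at 120 days and 738 to 1670 at 60 days in G93A mice, with 0 called, against 980.8 to 1768 at 120 days and 1044 to 1102 at 60 days in controls, where 1 of 8 rose (12.5%), Gad1. No listed marker lay at the floor on all arrays.

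Between genotypes no ribosomal protein gene passed the test at any age. At 60 days 0 of 43 were called, beside 0.688% of all tested probe sets. At an unadjusted p below 0.05 there were 9, or 20.9% beside 12.6% of all tested: 7 were higher in G93A mice (16.3% beside 7.85%) and 2 lower (4.65% beside 4.73%). The median difference was 0.24 with 29 of 43 above 0, beside -0.07 over all tested, and the median standard error of a member was 0.41. Rps7 came closest, with 2456, 1765 and 1522 in G93A mice and 778.2, 385.1 and 909.8 in controls, which did not overlap (1.53 ± 0.38, 2.89-fold, limma adjusted p = 0.0607). Its second probe set differed by 0.11 (limma adjusted p = 0.933). Rps4x had 960.8, 385.8 and 580.2 in G93A mice and 288.6, 203.3 and 273.4 in controls (1.25 ± 0.37, limma adjusted p = 0.125). Rps10 (0.82 ± 0.31) and Rpl8 (1.22 ± 0.47) were also without overlap, with limma adjusted p of 0.232 and 0.253. Rps14, the 40S gene lost in the human 5q- syndrome, had 2496, 1661 and 2058 in G93A mice and 1297, 598.2 and 908.8 in controls (1.20 ± 0.51, limma adjusted p = 0.308). All of these used the 60-day control arrays that also enter the age comparison in controls, so the same low control signals stand behind both sets of values.

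On the negative side at 60 days, Rps28, a small 40S protein, had 3074, 6703 and 5782 in G93A mice and 8213, 8809 and 11757 in controls without overlap (-0.95 ± 0.43, limma adjusted p = 0.351). Rps27, a zinc-finger protein of the 40S subunit, had 84, 94.5 and 252.7 in G93A mice and 275.2, 173.7 and 357.9 in controls (-1.03 ± 0.44, limma adjusted p = 0.318). Rps29 (-0.69 ± 0.45), Rpl13a (-0.61 ± 0.43) and Rpl35 (-0.56 ± 0.38) followed, and these 3 changed sign under another scaling or probe set. With the Gapdh ratio in the model the median over the 43 genes was -0.03, and it was 0.47 with each array centred on its median, which moved the median of all tested probe sets to 0.16. Of the marker lists, that of oligodendrocytes had a median of 1.06 (6 of 7 above 0) and that of astrocytes 0.65 (6 of 9), with 0 called. Microglia had -0.14 with 1 of 10 called, which was higher in G93A mice (10% beside 0.688% of all tested probe sets). Endothelial markers had a median of 0.485, interneuron markers 0.10 and motor neuron markers -0.19, with 0 called.

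At 90 days 0 of 43 genes were called, and 0% of all tested probe sets. At an unadjusted p below 0.05 there were 4 members, all higher in G93A mice and all of the 60S subunit: Rpl8, Rpl6, Rpl7 and Rpl4 (9.3% beside 4.56% of all tested in either direction and 2.29% higher). Rpl8 had 531.8, 516.2 and 506.1 in G93A mice and 183.1, 365.9 and 58.8 in controls (1.71 ± 0.47, limma adjusted p = 0.795). Its G93A signals lay close together while the controls spread widely, with replicate 3 lowest. Rpl7 had 1221, 1093 and 1158 in G93A mice and 553.5, 781.2 and 435.5 in controls (1.01 ± 0.41, limma adjusted p = 0.997). Rpl6 had 1528, 997.5 and 1100.4 in G93A mice and 905.5, 842.3 and 464 in controls (0.75 ± 0.30, limma adjusted p = 0.997). Rpl4, whose long arm reaches into the exit tunnel, differed by 1.76 ± 0.79, but its control replicate 3 had a signal of 11.1 beside 283.3 and 367.7 in the other 2. Rps3 had 0.57 ± 0.31, and the genes of smallest p on the negative side were Rps24 (-0.71 ± 0.46), Rpl37 (-0.60 ± 0.54), Rps29 (-0.55 ± 0.45), Rpl38 (-0.52 ± 0.37) and Rps18 (-0.36 ± 0.30). The median was 0.24, beside -0.02 over all tested, and 0.05 with the Gapdh ratio in the model. Marker lists had medians of 0.99 for astrocytes (8 of 9 above 0), 1.20 for endothelial cells (7 of 7) and 0.78 for microglia (8 of 10) at the same age. The medians were 0.28 for oligodendrocytes, 0.06 for interneurons and -0.51 for motor neurons. In each of these lists 0 were called, and their part in the values of the ribosomal protein genes was not tested.

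At 120 days 0 of 43 genes were called, beside 0.0241% of all tested probe sets, and 2 had an unadjusted p below 0.05, both higher in G93A mice (4.65% beside 12.2% in either direction and 6.22% higher). Rps14 had 1816, 4851 and 3313 in G93A mice and 441.5, 1468 and 3202 in controls, which overlapped (1.27 ± 0.51, limma adjusted p = 0.306). Rpsa differed by 0.89 ± 0.36 (limma adjusted p = 0.312), Rpl13a by 0.69 ± 0.43, Rpl37a by 0.57 ± 0.36 and Rpl10a by 0.41 ± 0.28. The genes of smallest p on the negative side were Rpl12 (-0.70 ± 0.53), Rps7 (-0.64 ± 0.38), Rps9 (-0.62 ± 0.38), Rps3 (-0.50 ± 0.31) and Rps4x (-0.41 ± 0.37). In each of these 10 genes the 3 G93A and the 3 control arrays overlapped. The median was 0.12, beside 0.09 over all tested, and with each array centred on its median it was -0.20, beside -0.23. Microglia markers had a median of 1.91 at this age (10 of 10 above 0, 0 called) and motor neuron markers one of -0.75 (2 of 8 above 0). Medians of the other lists were 0.24 for astrocytes, 0.10 for oligodendrocytes, 0.04 for endothelial cells and -0.44 for interneurons. Rps7 and Rps4x had positive values at 60 days and negative ones at 120 days, a change that the test of the genotype difference with age did not call.

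**Figure D5:**
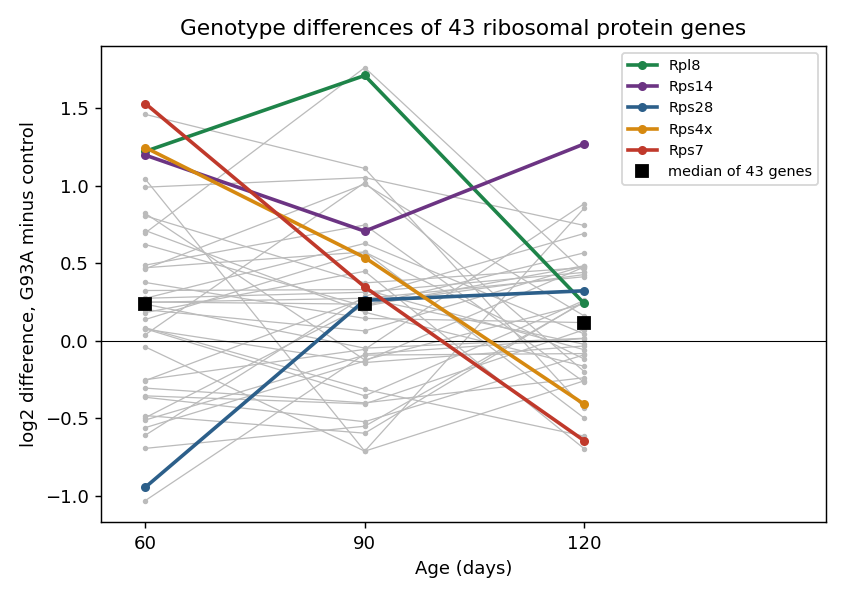
Log2 difference, G93A minus control (vertical axis), of each of the 43 tested ribosomal protein genes (lines) at 60, 90 and 120 days (horizontal axis), with the median at each age (squares). The medians lie at 0.24, 0.24 and 0.12, and the lines of Rps7 and Rps4x run from above 0 at 60 days to below 0 at 120 days.

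Over the 3 ages together, 9 G93A mice against 9 controls, 0 of 43 genes were called, beside 0.0121% of all tested probe sets. At an unadjusted p below 0.05 there were 7, all higher in G93A mice (16.3% beside 7.74% in either direction and 4.42% higher). Rpl8 and Rps14 had the smallest p, with 1.06 ± 0.27 and 1.06 ± 0.29 (2.08-fold each, limma adjusted p = 0.26 and 0.334). Next by p were Rplp0 (0.93 ± 0.35), Rpl7a (0.55 ± 0.21) and Rpl7 (0.55 ± 0.24). The genes of smallest p on the negative side were Rps27 (-0.37 ± 0.26), Rps29 (-0.33 ± 0.26), Rpl38 (-0.33 ± 0.21), Rpl27a (-0.31 ± 0.24) and Rps9 (-0.28 ± 0.22). The median was 0.19, with 30 of 43 above 0, beside 0.01 and 51.3% over all tested.

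Other genes of translation are given by lists. Fau, which encodes the 40S protein eS30 fused to a ubiquitin-like protein and is missed by the symbol rule, differed by 0.63 between 60 and 120 days in G93A mice without a call. It fell in controls, with signals of 154, 161.7 and 190.6 at 120 days and 286.5, 374.6 and 423.6 at 60 days (-1.09 ± 0.33, limma adjusted p = 0.0476). Of 7 tested elongation factors, Eef1b2, the exchange factor that reloads eEF1A with GTP, was 2.06 ± 0.36 higher in G93A mice than in controls at 60 days (limma adjusted p = 0.00752). It also rose with age in controls (2.72 ± 0.36, limma adjusted p = 9.62e-05), and its genotype difference changed with age (limma adjusted p = 0.0172). Eef1d, of the same complex, rose with age in controls (2.24 ± 0.34, limma adjusted p = 0.00036). These are 2 of 7 in the control age comparison (28.6%, beside 6.71% of all tested probe sets) and 1 of 7 at 60 days (14.3%, beside 0.688%). Of 30 tested genes of ribosome biogenesis, the 40S maturation kinase Riok2 fell with age in G93A mice (-1.80 ± 0.41, limma adjusted p = 0.0266). The shared RNA polymerase I and III subunit Polr1c rose in controls (1.32 ± 0.35, limma adjusted p = 0.0255). Each is 1 of 30 (3.33%), beside 2% of all tested probe sets in G93A mice and 6.71% in controls. Of 26 initiation factors Eif4g2 fell with age in G93A mice (-1.66 ± 0.35, limma adjusted p = 0.017), which is 3.85%, beside 2%. Of 14 tested regulators of TOP messenger RNAs and mTOR signalling, Cnbp, a zinc-finger protein reported to bind such messengers, fell with age in G93A mice (-1.65 ± 0.31, limma adjusted p = 0.00918). That is 7.14%, beside 2%. The median age differences of these 4 lists in G93A mice were 0.18 (elongation), -0.01 (biogenesis), -0.12 (initiation) and -0.36 (TOP and mTOR), beside 0.42 for the ribosomal proteins. In controls they were 0.81, -0.30, 0.21 and 0.16 in the same order, beside 0.43 for the ribosomal proteins, so that there the elongation factors had the higher median.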

How the data were processed

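RNA of 18 laser-captured motor neuron samples was hybridized to one-colour arrays. The deposited intensity values are MAS5 signals on a linear scale, per the submitters' processing notes; version and settings are not given there. The authors scaled them per array, as the values show: the mean without the top and bottom 2% was 100.04 to 100.06 on each array. From these, log2 was taken with signals below 1 set to 1 (965 of 408420 values). Probe sets above their array's median on at least 3 of 18 arrays were kept, 16565 of 22690. Group means of all 6 groups were fitted with limma 3.58.1 (R 4.3.3; intensity-trended variance, 12 residual degrees of freedom, two-sided), with Benjamini-Hochberg adjustment over all tested probe sets and a threshold of 0.05. The fits were tested on simulated data, with changes between genotypes set in probe sets of the brighter part. A log2 change of 1 was recovered in 4 to 8% of cases over the 3 ages, and one of 2 in 54 to 66%. Changes of 3 were recovered in 78 to 84% and of 4 in 98%, with 3 to 9 false calls.

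Named genes are, in each genotype comparison, up to 10 called or otherwise 5 in each direction by p, and up to 5 called in other tests; Rplp0, Rplp2, Rpl11, Rps6, Rps19 and the paralogs are always given. Members and lists were chosen with earlier results of these data known. Symbols come from an old platform annotation. Alternatives were scaling, the filter, the floor, probe set choice, Gapdh ratio and hybridization controls (18 probe sets) as covariates, a replicate block and omission of each array. Arrays give no counts, so the number of arrays limits precision.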

Additional observations from a re-analysis of the deposited data

How the results depend on the processing

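With each array left out, the genes named by p kept their direction; Rpl11, Rps6, Rps19 and Rps27l, given regardless of p, did not in at least 1 age comparison. Numbers of genes called depended more on the setting. Between 60 and 120 days in G93A mice, 5 genes became 2 with the Gapdh ratio in the model, 1 with the hybridization controls and 2 on the probe set of second highest mean (16 genes have one), where the median was 0.67; omitting single arrays gave 1 to 6, lowest without G93A replicate 2 of either age. In controls, 9 became 1 with the Gapdh ratio, 5 after quantile normalization, 0 without the 2 least correlated arrays and 2 on the second probe set, and omissions gave 5 to 9, lowest without control replicate 2 of 60 days. With arrays centred on their medians the control median was 0.93 (all tested probe sets 0.24), the 60-day genotype median 0.47 (0.16) and the 120-day one -0.20 (-0.23), and 1 gene, Rps7, was called for a genotype difference that changed with age. The 60-day median was -0.03 with the Gapdh ratio. Omissions gave 0 to 1 genes at 60 days (Rps7) and 0 to 1 over the mean of ages (Rpl8). The 6-group test called 8 with the hybridization controls, 6 on second probe sets and 9 to 19 over omissions. No call in an age comparison was lower at 120 days in the settings other than single-array omissions.

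These differences changed sign, and the cause was not tested. At 60 days Rps29 was 0.11 with the hybridization controls and 0.067 after quantile normalization, and Rpl35 was 0.01 with the hybridization controls. Without the possibly cross-hybridizing probe sets Rpl35 was 0.81 and Rpl13a 0.92. That Rpl35 value comes from a probe set of mean log2 signal 5.31, beside 11.61 for the representative. All Rpl35 probe sets with the suffix had lower 60-day means in G93A mice than in controls, and those without it had higher ones. At 90 days the Gapdh ratio turned Rpl4 (-0.33), Rps29 (0.12) and Rpl37 (0.007), and another probe set turned Rps24 (0.45). At 120 days Rpl13a was -0.31 without the possibly cross-hybridizing probe sets and -0.14 on its probe set of second highest mean. Over the ages, the Gapdh ratio turned Rpl7 (-0.071), Rps29 (0.14) and Rps9 (0.42), the hybridization controls turned Rps29 (0.055) and Rps9 (0.019), and the second probe set turned Rps29 (0.017). The age difference of Rpl13a in G93A mice was -0.10 without the possibly cross-hybridizing probe sets. With the replicate block, 5 genes were called in G93A mice, 9 in controls, 11 in the 6-group test and 0 elsewhere. Same-numbered arrays correlated between -0.12 and 0.22 in their deviations from group means, other pairs between -0.18 and 0.23. These ranges pool pairs of the same and of different ages, so they cannot decide whether the numbers pair the samples.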

Other observations

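The 102 ribosomal probe sets that the annotation shares with pseudogenes or other genes were counted beside the members, a choice made after seeing the data. Of 94 tested, 10 were called between 60 and 120 days in G93A mice (10.6%, beside 2% of all tested), with a median log2 difference of 0.47, and 21 in controls (22.3%, beside 6.71%), with a median of 0.79. Their signals cannot be assigned to 1 gene. Between genotypes 1 was called at 60 days (1.06%, beside 0.688%) and 0 at 90 and 120 days, with medians of 0.37, 0.31 and 0.06.

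Probe sets of 1 member gene often differed. Of 16 genes with several tested probe sets, 7 had 1 sign in all of them between 60 and 120 days in G93A mice, and 6 did in controls.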
